A study of Mus musculus with 4 samples.

Results

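The genes described here encode cullins and 2 of the large families of proteins that bring substrates to them, the F-box proteins and the Kelch-like proteins. They were taken by name as the protein-coding genes of the RefSeq annotation of GRCm38 whose symbol is Cul, Fbxl, Fbxo, Fbxw or Klhl followed by a digit, which gave 123 of 21900 coding genes. A peak was counted for a gene when its midpoint lay within the annotated span of that gene. The peaks came from an eCLIP experiment on MOV10, an RNA helicase that works with Argonaute proteins in mRNA silencing, in N2A cells, a mouse neuroblastoma line grown in serum-containing medium with no genetic change or drug named in the labels. In eCLIP, RNA crosslinked to a protein is recovered with an antibody and sequenced beside an input. There were 4 libraries, 2 from anti-MOV10 immunoprecipitates and 2 inputs, and the labels do not tell whether these were separate cultures.

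Cullin-RING ligases attach ubiquitin to other proteins. A cullin is the scaffold: one end holds a RING protein and the ubiquitin-carrying E2 enzyme, and the other end holds a replaceable receptor that picks the substrate. F-box proteins are the receptors of CUL1, to which they bind through SKP1, and are named by what follows the F-box: leucine-rich repeats (Fbxl), WD40 repeats (Fbxw) or another fold (Fbxo). Most Kelch-like proteins bind CUL3 through a BTB domain and the substrate through Kelch repeats. In neurons and dividing cells these ligases are known for the turnover of cell cycle regulators, transcription factors and synaptic proteins.

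The deposited list held 12236 peaks, each with 1 value over all libraries for the enrichment of immunoprecipitate over input and 1 for its significance. The first is read here as the authors' log2 fold enrichment and the second as their −log10 p, on the basis of the values and of the usual column order of eCLIP peak files. The list began at 3.001 on the log2 scale and at 3.005 on the −log10 p scale, so a gene without a peak may still have been bound more weakly, or expressed too little to be seen. There was no value per library, so no spread between replicates and no test over samples could be given, and the depth of the libraries is unknown. Of 17 markers of the neuroblastoma and neuronal lineage, 3 held a peak (17.6%), namely Stmn2, Ret and Gata2. By the same count, with peaks on the opposite strand of a gene left out, 8.28% of coding genes held one. The marker count says nothing of the level of the other markers.

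MOV10 peaks were found in 10 of the 123 genes (8.13%), 31 peaks in all, against 8.53% of all coding genes. The share was thus near the background of the list, and the family as a whole did not stand out by its number of marked genes. The marked genes were Cul4a among the cullins, Fbxl14, Fbxl16 and Fbxl19, Fbxo33 and Fbxo42, Fbxw5, Fbxw7 and Fbxw11, and Klhl9. By family this was 1 of 8 cullins (12.5%), 3 of 18 Fbxl genes (16.7%), 3 of 24 Fbxw genes (12.5%), 2 of 36 Fbxo genes (5.56%) and 1 of 37 Klhl genes (2.70%). These counts are too small to order the families, and no test was made between them. Of the Fbxw genes, 15 lie together on chromosome 9 (109139454 to 109790660), namely Fbxw13 to Fbxw28 without Fbxw17, and 0 of these held a peak. At the 8.53% of all coding genes, few of 15 genes would hold a peak in any case. They are close copies of each other, and how reads that match several copies were treated is not given in the sources used here. Whether this or low expression bears on the count was not tested.

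**Figure D1:**
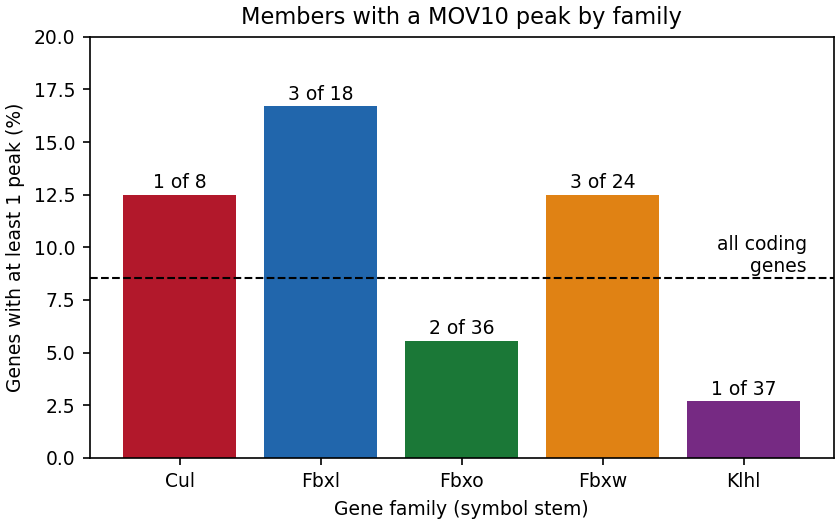
Share of genes with at least 1 MOV10 peak (y axis, percent) in each of the 5 symbol families (x axis), with the counts above the bars and the share over all coding genes, 8.53%, as a dashed line. The bars run from 1 of 37 Klhl genes to 3 of 18 Fbxl genes, on counts of 1 to 3 genes each.

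Taken by peak, enrichment in these genes lay in the lower part of the list. Peaks of the same gene are not independent. Fbxo42 gave 8 of the 31, at 3.0 to 3.88 on the log2 scale. By the strongest peak of each gene the gap was smaller, with a median of 3.66 against 3.84 over coding genes with a peak. The 31 peaks had a median log2 fold enrichment of 3.42 (10.7-fold) and ran from 8.02-fold to 23.2-fold (4.54 on the log2 scale), while all 11938 peaks in coding genes had a median of 3.71 and reached 6.93. A log2 fold enrichment of 4 or more was met by 4 of the 31 peaks (12.9%), against 33.5% of all coding-gene peaks, and these 4 were in Fbxl19 and Fbxl16. Counted by gene, that was 2 of 123 (1.63%), against 3.59% of coding genes. The median −log10 p was 6.80, from 3.01 to 14.3, against 10.2 in all coding-gene peaks. Below 5 were 10 of the 31 peaks (32.3%), against 15.8%. By gene the difference was small: 4 of the 10 genes had a peak of −log10 p of at least 10, against 44.1% of coding genes with a peak. With peaks of −log10 p of at least 5 alone, 7 of the 123 genes (5.69%) kept a peak, against 6.69% of coding genes. The 3 that lost theirs were Fbxw5, Fbxw7 and Fbxo33.

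**Figure D2:**
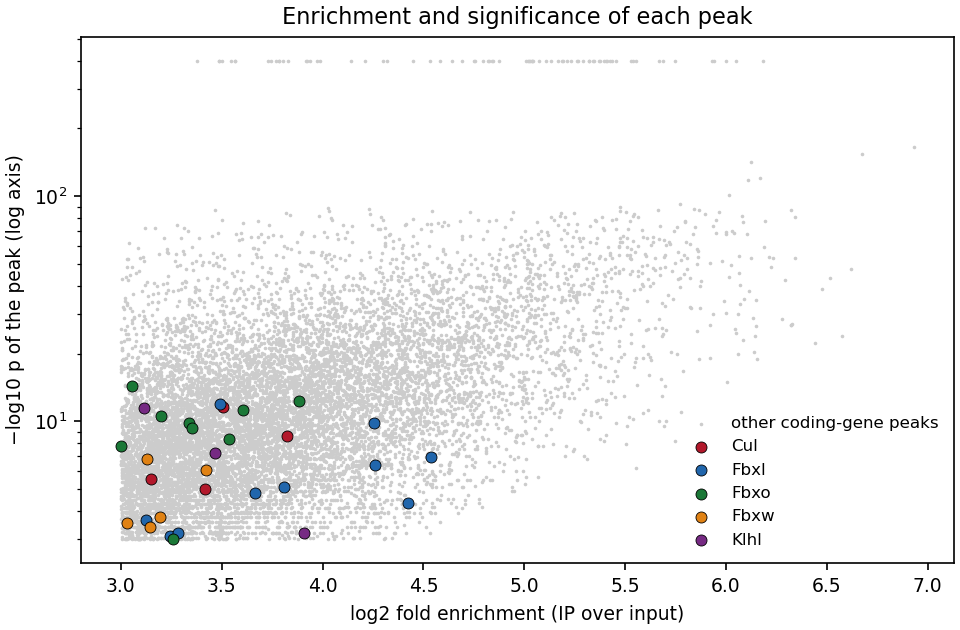
Each peak by its log2 fold enrichment (x axis) and its −log10 p (y axis, log scale), with the 31 peaks of the 5 families as coloured points and all other coding-gene peaks in grey. The coloured points stay at or below 4.54 on the x axis and at or below 14.3 on the y axis, while the grey points reach 6.93 and 400.

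Taken by the strongest peak of each gene, the 10 genes lay mostly in the middle and lower part of the coding genes with peaks. Their median was 3.66, against 3.84 over the 1868 coding genes with a peak, and 4 of the 10 were above that median. Fbxl19 ranked highest, with a stronger peak in 19.8% of coding genes with peaks, and Fbxw5 lowest, with one in 90.9%. They held a median of 2.5 peaks, against 3 over all coding genes with a peak. Fbxo42 had the most with 8, a number exceeded by 24.0% of the genes, whereas the largest number in the list was 110.

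**Figure D3:**
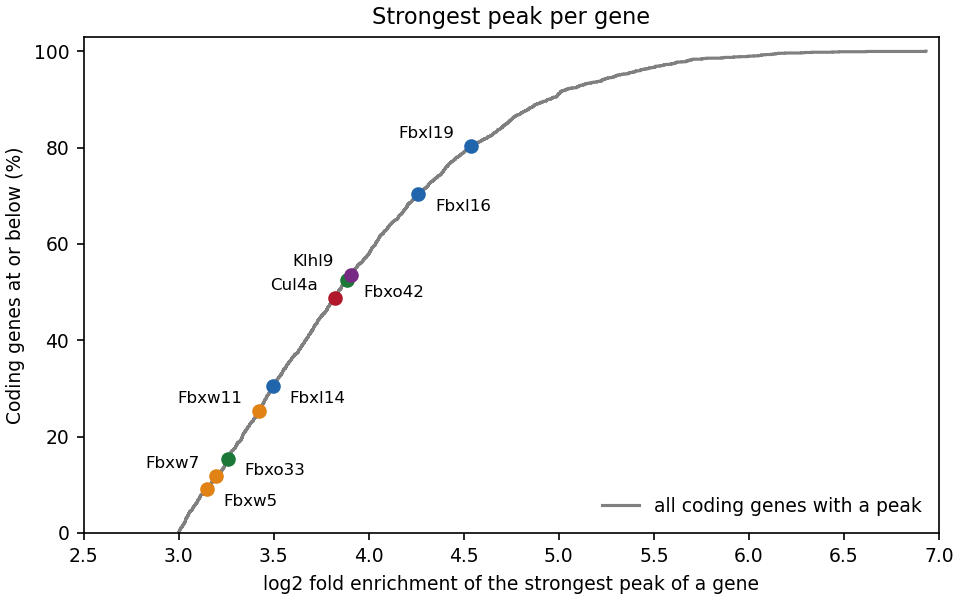
Cumulative share of the 1868 coding genes with a peak (y axis, percent) by the log2 fold enrichment of their strongest peak (x axis), with the 10 marked genes as points coloured by family. Fbxl19 and Fbxl16 stand apart at 4.54 and 4.26, and the other 8 lie between 3.15 and 3.91.

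All 31 peaks lay within 3 kb of the annotated 3′ end of their gene. This was common: every peak was within 3 kb in 71.1% of coding genes with a peak. Among those with 1 to 8 peaks it was 80.6%. The midpoints of the 31 peaks were 106 to 2634.5 nt from the end, with a median of 828 nt, against 1497.5 nt for all coding-gene peaks. For distances, a coding-gene peak in several overlapping coding genes was counted once for each, which made 12247 distances from the 11938 peaks. Within 1 kb of the end there were 23 of 31 peaks (74.2%), against 4323 of the 12247 distances (35.3%). By gene, 8 of the 10 had every peak within 1 kb of the end, against 31.4% of coding genes with a peak and 40.4% of those with 1 to 8 peaks, the range of these 10 genes. In the 6 of these genes that span 15 kb or more, all 21 peaks were within 5 kb (100%), against 85.9% in coding genes of that size. Peaks of 1 gene are not independent, and 8 of these 21 were in Fbxo42. No test of these differences was made. In a short gene a small distance to the 3′ end is also a small distance to the 5′ end: both peaks of Fbxl14, a gene of 4219 nt, lay near its middle, 2513 and 2389.5 nt from the 5′ end. None of the 130 windows around the transcription starts of 97 of the genes, from 250 nt before to 50 nt after each start, overlapped a peak. This adds little, because 113 of the genes had no peak in their span and no peak of the 10 was nearer than 2389.5 nt to the 5′ end. The same count was not made for all coding genes. The annotation used here has gene spans without exons, so whether a position is in a 3′ untranslated region was not determined.

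**Figure D4:**
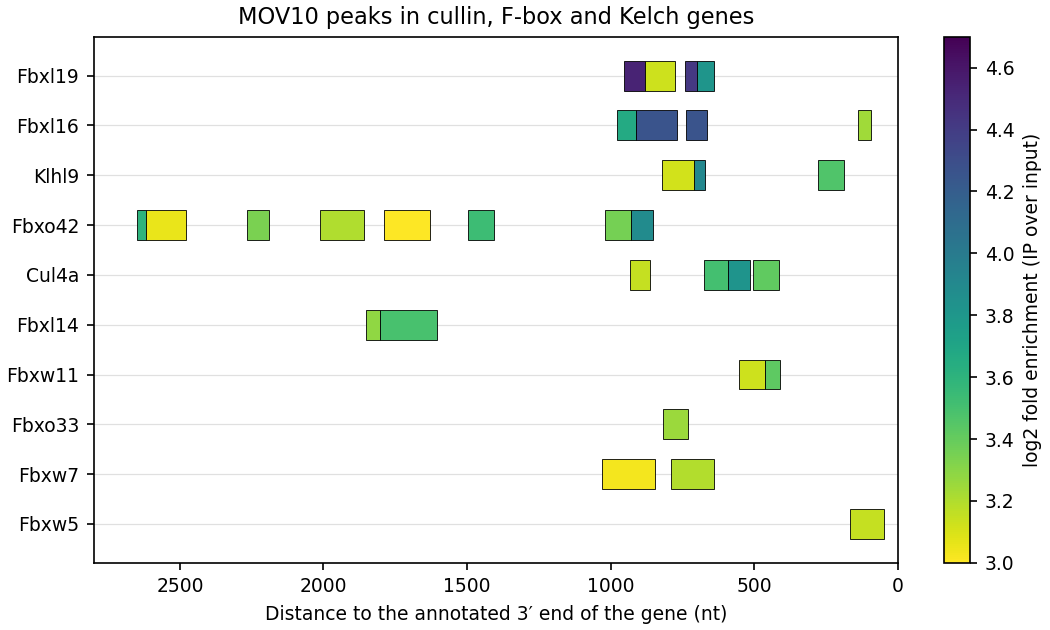
Position of the 31 peaks along the last part of their genes: distance of each peak to the annotated 3′ end (x axis, nt, with the end at the right), 1 gene per line, bar length for the width of the peak and colour for its log2 fold enrichment. In 8 genes every bar has its midpoint within 1 kb of the end, and Fbxo42 and Fbxl14 reach 2634.5 and 1828.5 nt.

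Among the scaffolds, Cul4a was the one cullin with peaks. Its product carries the adaptor DDB1 and a set of WD40 receptors, and is known for roles in DNA repair and replication licensing. The gene lies on chromosome 8 at 13105623 to 13147940 on the plus strand. Enrichment was highest at 13147350 to 13147427, with 3.82 on the log2 scale (14.1-fold) at a −log10 p of 8.62. The neighbouring peak that touched it, at 13147266 to 13147349, had 3.51 and the highest −log10 p of the gene, 11.6. The other 2 peaks had 3.42 and 3.15, and the 4 lay 458 to 896.5 nt from the 3′ end. Cul4b, the close relative of Cul4a, had no listed peak, nor had Cul1, Cul2, Cul3, Cul5, Cul7 and Cul9.

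The 2 strongest genes of the set were Fbxl genes. Fbxl19, whose product also has a CXXC zinc finger that binds unmethylated CpG islands, lies on chromosome 7 (127743887 to 127769483, plus strand). Its 4 peaks fell within 313 nt, 668.5 to 917 nt from the 3′ end. Enrichment was highest at 127768531 to 127768601, with 4.54 on the log2 scale at a −log10 p of 6.96. The next, at 127768742 to 127768785, had 4.42 at a −log10 p of 4.34. The remaining peaks had 3.81 and 3.13, at a −log10 p of 5.09 and 3.63. High and low enrichment thus alternated over a short stretch, the weakest peak directly touching the strongest. The alternation rests on the peaks of 4.42 and 3.13, both below a −log10 p of 5.

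Fbxl16, an F-box gene known for its expression in brain, lies on chromosome 17 (25808461 to 25821262, plus strand) and also had 4 peaks. Its leading peaks, at 25820527 to 25820599 and 25820353 to 25820494, both reached 4.26 on the log2 scale, at a −log10 p of 6.43 and 9.85. A peak that touched the second of these had 3.67, and a separate one, 115.5 nt from the 3′ end, had 3.24. Fbxl16 therefore held a main group at 699 to 944 nt from the end and an isolated weak peak close to the end itself.

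Fbxl14, whose product targets the Snail family of transcription factors, is a short gene of 4219 nt on chromosome 6 (119479668 to 119483886). It lies wholly inside the span of Wnt5b, a Wnt ligand gene at 119432531 to 119544824. Both of its peaks were on the plus strand, which is the strand of Fbxl14, whereas Wnt5b runs on the minus strand, and Wnt5b had 0 peaks on its own strand. The peaks touched and together covered 247 nt. The wider, at 119482082 to 119482280, was enriched by 3.49 on the log2 scale at a −log10 p of 11.9, and the narrower by 3.28. They lay 1705 and 1828.5 nt from the 3′ end, the farthest of any of these genes after Fbxo42.

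The 3 Fbxw genes with peaks had weak ones. Fbxw11, or β-TrCP2, recognises phosphorylated degrons in β-catenin and IκB. It spans 104262 nt of chromosome 11 (32642555 to 32746816, plus strand), and its 2 touching peaks at 32746265 to 32746407 lay 434.5 and 506 nt from the 3′ end, with log2 fold enrichments of 3.42 and 3.13. Its paralogue Btrc, which the naming rule does not take in, had no listed peak. Fbxw7, the receptor for cyclin E, Myc and Notch, is the longest of the 10 genes at 164209 nt (chromosome 3, 84814990 to 84979198, plus strand). Its peaks, at 84978408 to 84978557 and 84978170 to 84978353, had 3.20 and 3.03 with a −log10 p of 3.77 and 3.54, close to the lower limit of the list. Both lay within the last 0.570% of the gene span. Fbxw5, on chromosome 2 (25500750 to 25505470, plus strand), had 1 peak of 3.15 at 25505306 to 25505422, which at 106 nt was the nearest of all 31 to a 3′ end.

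Fbxo42 had the most peaks. Its product, also known as JFK, combines an F-box with Kelch repeats and is known to target p53. In the gene on chromosome 4 (141147922 to 141204062, plus strand) 8 peaks were spread over 1799 nt, from 890.5 to 2634.5 nt before the 3′ end, and covered 820 nt of it. The peak nearest to the end, at 141203133 to 141203210, was also the most enriched, with 3.88 on the log2 scale at a −log10 p of 12.4. The peak with the highest −log10 p of all 31, 14.3, was at 141201444 to 141201584, where enrichment was 3.05 on the log2 scale. The remaining 6 ran from 8.02-fold to 12.2-fold. Fbxo42 thus had a broad run of significant peaks with modest enrichment, with a −log10 p of at least 7.75 in each. Fbxo33, whose product targets the Y-box protein YBX1, had a single peak at 59201387 to 59201473 on chromosome 12 (gene at 59200655 to 59221961, minus strand), with 3.26 and a −log10 p of 3.01.

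Among the Kelch-like genes Klhl9 alone held peaks. Its product works with KLHL13 and CUL3 and is known to regulate Aurora B in mitosis. Klhl9 is a compact gene of 4217 nt on chromosome 4 (88718292 to 88722508, minus strand). Its strongest peak by enrichment, 3.91 at 88718962 to 88719001, was 40 nt wide and had a −log10 p of 3.21. The touching peak at 88719002 to 88719113 had the lowest enrichment, 3.12, and the highest −log10 p, 11.5. The remaining peak had 3.47, at 233 nt from the 3′ end. Klhl13 had no listed peak.

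Several features were shared by the 10 genes. All 31 peaks were on the strand of their gene, as given by RefSeq for these genes. Over the whole list, 13 of 8775 peaks with their midpoint in a single coding gene of known strand (0.148%) were on the opposite strand. The peaks were 32 to 199 nt wide, with a median of 87 nt against 74 nt over coding genes. Touching neighbours were common, with 18 of 31 peaks (58.1%) joined in 9 pairs, against 54.1% of peaks over the whole list. In the 8 genes with several peaks, the peak of highest enrichment was the one of highest −log10 p in 3 and another one in 5, and it was the peak nearest to the 3′ end in 4. Over the 5 families together, the marked genes had a median span of 23452 nt against 25969 nt in the 113 others, and ranged from 4217 nt in Klhl9 to 164209 nt in Fbxw7. Over all coding genes the medians were 42299 nt with a peak and 15613.5 nt without.

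Other ubiquitin genes named by a common stem had somewhat higher shares. Peaks were found in 10 of 83 Rnf genes, a stem used for RING finger proteins (12.0%), and in 11 of 56 Usp genes, which encode ubiquitin-specific proteases (19.6%). The share over all coding genes was 8.53%. With peaks on the opposite strand left out, 10 Usp genes held a peak (17.9%), against 8.28% of coding genes, and the Rnf count did not change. A log2 fold enrichment of at least 4 was reached in 6 Rnf genes (7.23%) and 4 Usp genes (7.14%). This stands against 3.59% of all coding genes and 1.63% of the cullin, F-box and Kelch genes, which is 2 genes. These differences were not tested, and the abundance of the transcripts in the input was not known.

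Partners of the cullins that the naming rule leaves out were counted from 9 lists of pathway genes, in which peaks on the opposite strand of a gene were left out. Of their 196 genes, 34 held a peak (17.3%), against 8.28% of coding genes by the same count. The lists were chosen as well-studied genes and with earlier results of these data known, so the share is a description. Of 8 core and adaptor subunits, Rbx1, the RING subunit itself, had 2 peaks up to 3.81, and Ddb1, Skp1a, Elob and Eloc had none listed. Among 17 genes of neddylation and cullin exchange, peaks were in Arih2 (4.15) and Arih1 (3.74), ubiquitin ligases that act with cullins carrying NEDD8, and in Cacul1 (3.45). The COP9 signalosome, which removes NEDD8, had Cops7b (3.71) of 10, and the E2 enzymes had Ube2d3 (3.82) and Ube2l3 (3.49) of 7.

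Genes of receptors outside the naming rule included some with higher enrichment than any of the 10 genes, in a comparison that was not tested. For CUL4, 4 of 27 receptor genes had peaks (14.8%), against 8.28% of coding genes by the same count. Wdtc1 reached a log2 fold enrichment of 5.92 with 16 peaks, Dcaf7 5.59 with 33, Dcaf12 5.39 with 4 and Cop1 3.85 with 1. The peaks of Dcaf7 lay where a non-coding gene on the opposite strand, Taco1os, overlaps it. For CUL2 and CUL5, 6 of 38 had peaks (15.8%). Fem1b (4.99, 35 peaks), Socs7 (4.94, 24 peaks) and Klhdc10 (4.77, 17 peaks) led, followed by Zyg11b (4.56), Asb1 (4.43) and Asb8 (3.90). For CUL3, 8 of 39 further BTB adaptors had peaks (20.5%). Tnfaip1 (4.93), Spop (4.71, 22 peaks), Kctd17 (4.60) and Kctd10 (4.38) were ahead of Kctd3, Rhobtb2, Kctd20 and Rhobtb3, which ran from 4.00 to 3.49. Of 5 further F-box genes, Skp2 and Btrc among them, 0 had a listed peak.

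Transcripts of known substrates were marked in 9 of 45 genes (20%), against 8.28% of coding genes by the same count. This list, like the others, was chosen with earlier results of these data known. Kmt5a (5.47, 19 peaks) and the kinase inhibitor gene Cdkn1a (4.80, 6 peaks) encode substrates that CUL4 ligases degrade in S phase. Wnk1 (5.43, 25 peaks) encodes a kinase of the family recognised by KLHL3, and Ireb2 (4.66, 8 peaks) the iron regulatory protein recognised by FBXL5. Both Klhl3 and Fbxl5 lacked a listed peak. The cyclin genes Ccnd3 (4.58) and Ccnd1 (4.42, 19 peaks), the Wnt signalling genes Dvl1 (4.09) and Dvl3 (3.80) and Hif1a (3.04, 1 peak) completed the list. The peak of Hif1a lay where a non-coding gene, Gm15283, overlaps it.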

How the data were processed

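eCLIP libraries of MOV10 immunoprecipitates and inputs from N2A cells were described in the labels, and 1 peak list of the whole series was analysed. Per the submitters' processing notes the build was mm10, also listed as GRCm38.p6. Not given in the sources used here are the aligner, peak caller, thresholds and way of combining replicates. The deposited list has no header. Its values were read as the authors' −log10 p and the authors' log2 fold enrichment, from their range and column order.

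Start positions were converted to count from 1. Peaks were placed by midpoint in RefSeq gene spans of GRCm38.p6, whether or not another gene overlapped, with the strand of a gene taken from RefSeq start windows (97 of the 123 genes had one). Every gene with a peak was named, and those of highest enrichment or most peaks were described in full, as was every cullin with a peak and the leading gene of each family; cullins without a peak were named. Members and lists were chosen with earlier results of these data known. The placement was tested on simulated peaks. Sequences of the peaks were not used here. Alternatives were a log2 fold enrichment of at least 4, a −log10 p of at least 5, overlap by 1 base, peaks in 1 gene alone, merged peaks and windows of 2 and 10 kb. Python 3.11.15 with pandas 2.3.3 was used.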

Additional observations from a re-analysis of the deposited data

How the results depend on the processing

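The 10 genes and 31 peaks became 2 genes and 4 peaks with a log2 enrichment minimum of 4. With peaks in 1 gene span only (which loses Fbxl14) there were 9 genes and 29 peaks. The median strongest log2 fold enrichment, 3.66, was 4.40 with a log2 enrichment minimum of 4, and 3.82 both at a −log10 p of at least 5 and with peaks in 1 gene span only. A median of 4 or more follows from that minimum itself, which leaves 2 genes. The median over all coding genes with a peak was not recomputed under these alternatives. The median number of peaks, 2.5, was 2 with a log2 enrichment minimum of 4, at a −log10 p of at least 5 and with touching peaks merged, and 3 with peaks in 1 gene span only. The share within 5 kb of the 3′ end was 100% under each alternative that kept this window. Because all 31 peaks lay within 2634.5 nt of the end, a wider window or a subset of them could give no other value. With the log2 enrichment minimum of 4 the share rested on Fbxl19 alone, as Fbxl16 spans less than 15 kb. The share within a 2 kb window was 85.7%. Leaving out peaks on the opposite strand, or Fbxo42 (23 peaks remain), was added after the data had been seen. No paired analysis was possible because the list holds 1 value per peak over all libraries. Leaving out a replicate was not possible for the same reason. The unknown depth limits what the lack of a peak can show.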

Other observations

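Peaks lay close to, but outside, the spans of 7 of the 113 genes without a peak of their own, within 10 kb. The same count was not made for other coding genes, so whether 7 is many or few is not known. For 6 of these 7 genes the nearby peaks were inside other genes. The exception was Fbxl18, an F-box gene with leucine-rich repeats on chromosome 5 (142871789 to 142896721, minus strand). Downstream of it, on its strand and in no annotated gene, 5 peaks lay between 142867036 and 142869606, with midpoints 2258.5 to 4717 nt past the annotated 3′ end. Their log2 fold enrichments were 4.09, 4.06, 3.60, 3.09 and 3.03, and the highest −log10 p was 14.2. The strongest of these exceeded the peaks of 8 of the 10 genes that were counted. The next annotated gene in that direction, Gm52793, lay 7340 nt beyond the last of these peaks and is on the plus strand. Whether these peaks belong to a longer Fbxl18 transcript was not tested, and they are not among the 31 counted.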
